A study of Mus musculus with 6 samples.

Results

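The 10 genes described here belong to the Notch pathway and were measured in mouse mammary luminal epithelial cells, the cells that line the ducts and make milk. They are the 4 receptor genes Notch1, Notch2, Notch3 and Notch4, the 2 ligand genes Jag1 and Jag2, and the 4 target genes Hes1, Hey1, Heyl and Dtx1. The genes were chosen by name, and all 10 are among the 16701 genes of the authors' deposited comparison. That comparison sets 3 libraries from Ocln knockout mice against 3 libraries from wild-type control mice, all at 7 weeks of age. Ocln encodes occludin, a membrane protein of tight junctions, and the series asks what occludin does for the spindle of dividing cells together with FIP5, a partner of the recycling endosome. How the Ocln allele was made, the strain background, how luminal cells were isolated and whether each library is a separate mouse are not stated by the labels, so the p-values measure the spread between these libraries, which may be partly technical.

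Notch receptors are membrane proteins that are cut when a ligand of the Delta or Jagged family on a neighbouring cell pulls on them. The freed intracellular domain enters the nucleus, binds the DNA-binding protein RBPJ with a Mastermind co-activator, and switches on genes such as those of the HES and HEY repressors. In the mouse mammary gland the pathway is known for directing epithelial cells to the luminal fate, and lineage tracing places Notch1 in luminal cells that lack hormone receptors.

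The authors' deposited table holds for each gene a mean level in normalized counts over all 6 libraries, the log2 fold change of knockout over control (called the log2 ratio below) with its standard error (SE), a p-value and an adjusted p-value. It holds no values per library, so levels below are means over both genotypes unless a fitted level is named, and the depth of each library is unknown. A gene is called where the authors' adjusted p is under 0.05. Ocln itself was lower in the knockout in the authors' deposited table, with a log2 ratio of -1.15 ± 0.16 (SE, DESeq2 adjusted p = 4.36e-09). The libraries carried the RNA of luminal cells: Krt18 and Krt8, keratin genes of luminal cells, had mean levels of 84084 and 61719 normalized counts in the authors' deposited table, while Krt14 and Krt5, keratin genes of basal cells, had 215.6 and 116.0.

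Of the 10 Notch genes, 2 rose in the knockout, and 0 fell. Notch1, the receptor gene, was 1.69-fold higher, and Dtx1, a target gene that encodes the ubiquitin ligase Deltex1, was 2.68-fold higher, both computed from the authors' deposited table. Over all listed genes, 0.808 percent were called higher and 0.275 percent lower, or 1.08 percent in all. At an unadjusted p under 0.05, 3 of the 10 were higher and 0 lower, against 9.07 percent of all listed genes in either direction. The authors themselves called 2 of the 10 Up, Dtx1 and Heyl, where they called 1.8 percent of all listed genes Up and 2.79 percent Up or Down. The 10 genes were chosen with earlier results of these data known, so no test was made of their number. The largest fold change among them belonged to Heyl, which did not pass. Of the 10 genes, 8 had a positive log2 fold change, against 48.8 percent of all listed genes, and the median was 0.24 against -0.01 over all listed genes.

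**Figure D1:**
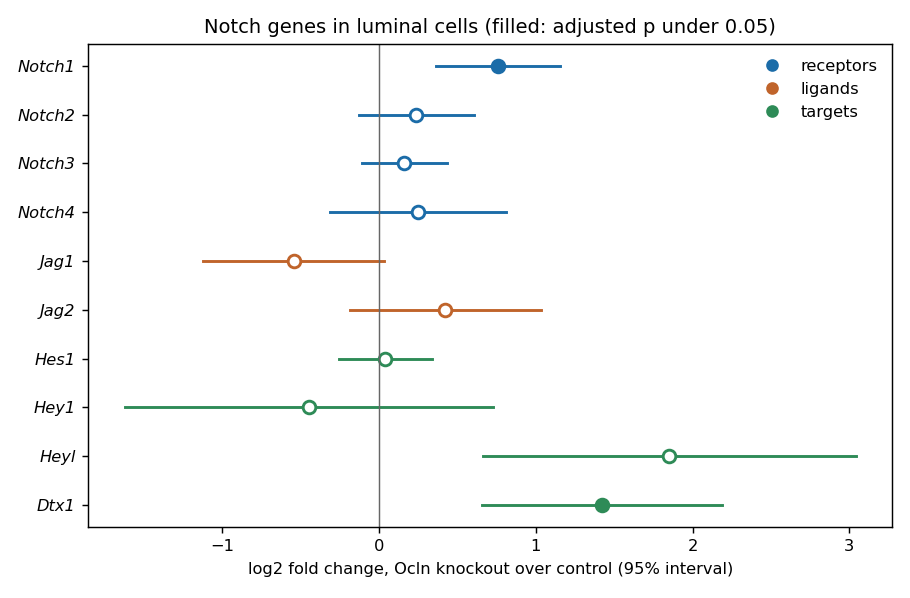
Log2 fold change of knockout over control for each of the 10 Notch genes (x axis, log2 units) with its 95% interval, coloured by role, from the authors' deposited table. Filled points passed an adjusted p of 0.05: Notch1 at 0.76 and Dtx1 at 1.42. Heyl lies farthest right at 1.85 with a wide interval, and Jag1 and Hey1 lie left of 0 with intervals that reach across it.

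The start regions of the 3 receptor genes with high levels are shown because 1 of them rose in the knockout and the other two did not pass. Each is the 250 bases before the start annotated by RefSeq on GRCm38.p6, written 5′ to 3′ on the gene's own strand, at chr2:26503823-26504072 on the minus strand for Notch1, chr3:98013288-98013537 on the plus strand for Notch2 and chr17:32166891-32167140 on the minus strand for Notch3. Capitals mark the letters CACGCG or the reverse complement CGCGTG, a site that HES and HEY proteins are known to bind.
Notch1: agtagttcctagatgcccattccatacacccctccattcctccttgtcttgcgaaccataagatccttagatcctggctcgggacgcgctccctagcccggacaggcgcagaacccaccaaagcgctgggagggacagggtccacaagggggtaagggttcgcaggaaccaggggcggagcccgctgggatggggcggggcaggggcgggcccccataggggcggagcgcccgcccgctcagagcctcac
Notch2: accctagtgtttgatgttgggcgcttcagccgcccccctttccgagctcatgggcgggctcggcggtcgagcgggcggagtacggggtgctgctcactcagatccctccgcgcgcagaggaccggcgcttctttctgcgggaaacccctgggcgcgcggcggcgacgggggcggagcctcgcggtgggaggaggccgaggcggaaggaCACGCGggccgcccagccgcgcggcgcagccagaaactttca
Notch3: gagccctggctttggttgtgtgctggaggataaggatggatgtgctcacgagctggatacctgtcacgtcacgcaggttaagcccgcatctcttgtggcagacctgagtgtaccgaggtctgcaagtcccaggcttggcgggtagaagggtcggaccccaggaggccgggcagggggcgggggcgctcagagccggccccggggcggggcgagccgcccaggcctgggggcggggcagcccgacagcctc
The letters searched on both strands were TGGGAA, the core bound by RBPJ, CACGTG and CACGCG. Windows were found for 7 of the 10 genes, and none of the 7 held TGGGAA or CACGTG, while 21.6 percent and 6.02 percent of all 32851 windows of this length did. CACGCG was found in 3 of the 7, namely Notch2, Jag1 and Dtx1, against 7.62 percent of all windows. The windows of these 7 genes held between 56.4 and 87.2 percent G and C, against a median of 52.4 percent over all windows, and the site itself contains CpG dinucleotides. In GENCODE M21 all 250 bases of the Dtx1 and Jag2 windows lie in annotated exons of those genes, which start farther upstream there, as do 124 bases of the Jag1 window, 27 of Notch4 and 11 of Notch2. The Notch1 window lies within the GENCODE bounds of the gene, and 2 of its bases lie in annotated exons of it. The start regions of Hes1, Hey1 and Heyl were not analysed here.

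Notch1 (GRCm38 chromosome 2, bases 26457903 to 26516663, minus strand) had a mean level of 4986 normalized counts and a log2 ratio of 0.76 ± 0.20 (SE, DESeq2 adjusted p = 0.0211) in the authors' deposited table. With 3 libraries a genotype, that mean and fold change give fitted levels of 6266 normalized counts in knockout cells and 3705 in control cells. The knockout level was 169.1 percent of control, with a 95 percent interval of 128.7 to 222.2 percent that is not adjusted for the number of genes. The authors' own call for Notch1 is Stable. The rule behind their calls is not given in the file headers. The smallest log2 ratio that they called was 1.01 in size, and the largest unadjusted DESeq2 p that they called was 0.0498. The call was lost once a trend of the scores with exon length had been removed (adjusted p = 0.0804) and once the scores had been scaled down by their inflation (adjusted p = 0.0668).

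The other receptor genes had smaller positive values and did not pass. Notch3, the receptor gene with the highest level, had a mean level of 7131 normalized counts and a log2 ratio of 0.16 ± 0.14 (SE, DESeq2 adjusted p = 0.838) in the authors' deposited table. Its interval ran from 92.5 to 135.1 percent of the control level. Notch2 had a mean level of 1423 normalized counts and a log2 ratio of 0.24 ± 0.19 in the authors' deposited table (DESeq2 adjusted p = 0.80), with an interval of 91.3 to 152.2 percent. Notch4, a receptor gene best known from blood vessel endothelium, had only 71.6 normalized counts and a log2 ratio of 0.25 ± 0.29 in the authors' deposited table (DESeq2 adjusted p = 0.902). The interval of Notch1 overlaps those of the other 3 receptors, and the difference between receptors was not tested.

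The 2 ligand genes had values of opposite sign, and neither passed. Jag1 encodes the ligand Jagged1. It had a mean level of 1492 normalized counts and a log2 ratio of -0.55 ± 0.30 (SE, DESeq2 adjusted p = 0.601) in the authors' deposited table, or 68.5 percent of the control level with an interval of 45.9 to 102.4 percent. Jag2, which encodes Jagged2, had 104.5 normalized counts and a log2 ratio of 0.42 ± 0.31 in the authors' deposited table (DESeq2 adjusted p = 0.775), with an interval of 87.7 to 204.9 percent.

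Of the 4 target genes, 1 rose and 3 did not pass. Dtx1 encodes a protein that binds the intracellular part of Notch. Dtx1 had a mean level of 139.6 normalized counts and a log2 ratio of 1.42 ± 0.39 (SE, DESeq2 adjusted p = 0.031) in the authors' deposited table, which gives fitted levels of 203.3 normalized counts in knockout cells and 75.8 in control cells. It is the only gene of the 10 with both an adjusted p under 0.05 and the authors' call of Up. Its call was lost once the scores had been scaled down by their inflation (adjusted p = 0.0913).

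Heyl and Hey1 encode related repressors of the HEY family. Heyl, at 57.5 normalized counts the lowest mean level of the 10, had a log2 ratio of 1.85 ± 0.61 (SE) in the authors' deposited table, or 3.61-fold with an interval of 1.58 to 8.24. The fitted levels were 90.0 normalized counts in knockout cells and 24.9 in control cells. The authors called Heyl Up, and its DESeq2 p was 0.00231 unadjusted and 0.123 adjusted in the authors' deposited table. With that SE a log2 change of 2.10 in size would have been needed to pass. Hey1 had a log2 ratio of -0.45 ± 0.60 in the authors' deposited table (DESeq2 adjusted p = 0.926), while its level averaged 2226 normalized counts. Its interval, 32.5 to 165.6 percent of the control level, spans values below and above the control level.

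Hes1, the HES repressor gene most widely used as a readout of Notch signalling, was the most abundant of the 10 and its log2 ratio lay close to 0. It had a mean level of 9433 normalized counts and a log2 ratio of 0.04 ± 0.15 in the authors' deposited table (SE, DESeq2 adjusted p = 0.98). The knockout level was 102.8 percent of control with an interval of 83.6 to 126.5 percent, which does not reach the fold changes of Notch1, Dtx1 or Heyl.

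Per length the order of the 10 genes differed little from that of their counts. Hes1 led with 4631 normalized counts per kb of exon, followed by Notch3 at 881.6 and Hey1 at 681.9. Notch1 had 350.3 normalized counts per kb, Jag1 256.1 and Notch2 132.0, the last being close to the median of 108.4 over listed genes with a length. Dtx1 at 26.5 normalized counts per kb, Jag2 at 15.0, Heyl at 11.2 and Notch4 at 8.88 formed a low group. Of the 2 genes that rose, Notch1 thus had a level above that median and Dtx1 one below it. Spread over samples is not known for these levels, so neighbours in this order were not tested.

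**Figure D2:**
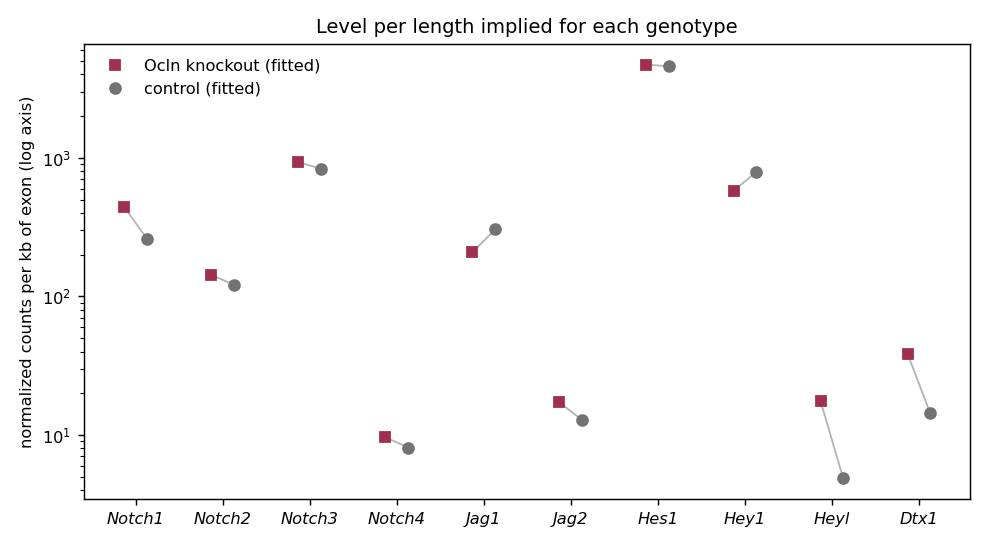
Fitted level per length in knockout (squares) and control (circles) for each of the 10 Notch genes, in normalized counts per kb of exon on a log axis, worked out from the mean level and fold change of the authors' deposited table, with no value per library. Notch1 stands at 440.3 in knockout cells against 260.4 in control cells and Dtx1 at 38.6 against 14.4, while the 2 points of Hes1 nearly coincide.

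The precision of the 10 genes differed among themselves when the SE was set beside the 500 genes nearest in mean level. Hey1 had an SE 3.56 times the median of those genes (0.17), and only 3 of the 500 had a larger one. Jag1 had an SE above 96.4 percent of its 500 nearest genes, Heyl above 96.2 percent and Dtx1 above 88.8 percent. Notch3 and Notch4 were at the other end, with SEs above 6.4 and 3.8 percent of their neighbours, and Hes1 stood above 23.0 percent. A log2 change of 2.07 in size would have been needed for Hey1 to pass, against 0.53 for Hes1 and 0.48 for Notch3.

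**Figure D3:**
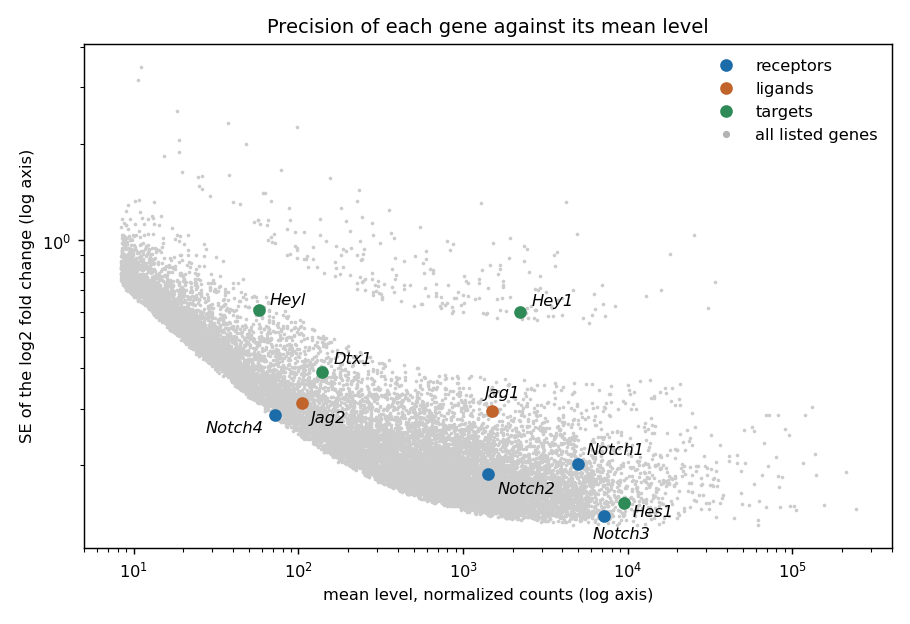
SE of the log2 fold change against the mean level in normalized counts, both on log axes, for all 16701 listed genes (grey) and the 10 Notch genes (coloured by role), from the authors' deposited table. Hey1 lies at an SE of 0.60 in a sparse upper band, apart from the main cloud at its level, and Notch3 lies at 0.14 along the lower edge.

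Of a list of 58 further genes of the pathway, 51 were listed and 0 were called in the DESeq2 test, against 1.08 percent of all listed genes. With so low a share, 0 calls among 51 genes do not show that the list was unchanged. At an unadjusted DESeq2 p under 0.05, 2 had higher and 2 had lower levels in the knockout, against 5.23 percent and 3.83 percent of all listed genes. The log2 fold changes of the 51 genes ran from -0.70 to 0.68 with a median of 0.02, and 26 were positive, against 48.8 percent of all listed genes. The other 7 were not analysed here.

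Among the other ligands, Dll1, which encodes a Delta ligand, had a log2 ratio of -0.51 ± 0.29 (SE) in the authors' deposited table. All 5 genes of ubiquitin ligases that act on ligands had positive values, none of which passed, led in level by Mib1, which encodes Mind bomb 1 (0.10 ± 0.16 in the authors' deposited table). Neurl3, of the Neuralized family, had a log2 ratio of 0.68 ± 0.40 in the authors' deposited table. All 5 genes of enzymes that put sugars on the receptor had negative values, none of which passed. Some of these values were small beside their SE, and the counts of signs by role were not tested. Lfng, the gene of Lunatic fringe, which alters the response of a receptor to Delta and Jagged ligands, had a log2 ratio of -0.70 ± 0.28 in the authors' deposited table (unadjusted DESeq2 p = 0.0117, adjusted p = 0.314), and Pofut1, the gene of the O-fucosyltransferase that fringe enzymes build on, had -0.02 ± 0.17.

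Of 10 genes for cutting the receptor, 8 had negative values and 0 passed, with a median of -0.10. Adam10, the protease gene for the cut that follows ligand binding, had the highest mean level of the whole further list, 14634 normalized counts, and a log2 ratio of -0.51 ± 0.26 in the authors' deposited table (unadjusted DESeq2 p = 0.0532). The nuclear complex had 5 of 6 positive values and 0 that passed. Maml1, a Mastermind co-activator gene, had a log2 ratio of 0.30 ± 0.16 in the authors' deposited table, Ep300, an acetyltransferase gene, had 0.18 ± 0.17, and Rbpj, named after its value was seen, had 0.16 ± 0.16. Of 9 co-repressor genes 0 passed. Hdac1, a histone deacetylase gene, had a log2 ratio of -0.51 ± 0.24 in the authors' deposited table (unadjusted DESeq2 p = 0.0338).

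Of 8 genes for turnover and modulation of the receptor 0 passed. Fbxw7, which encodes the substrate receptor of a ubiquitin ligase that marks the Notch intracellular domain for destruction, had a log2 ratio of 0.51 ± 0.18 in the authors' deposited table (unadjusted DESeq2 p = 0.00555, adjusted p = 0.214). Numb, the gene of an inhibitor of Notch, had a log2 ratio of 0.17 ± 0.25 in the authors' deposited table. Among 6 other targets and relatives of HES and HEY genes 0 passed, with a median of 0.05. Ccnd1, the cyclin D1 gene, had a log2 ratio of -0.13 ± 0.30 in the authors' deposited table and Hes6, a HES relative, had -0.21 ± 0.20.

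**Figure D4:**
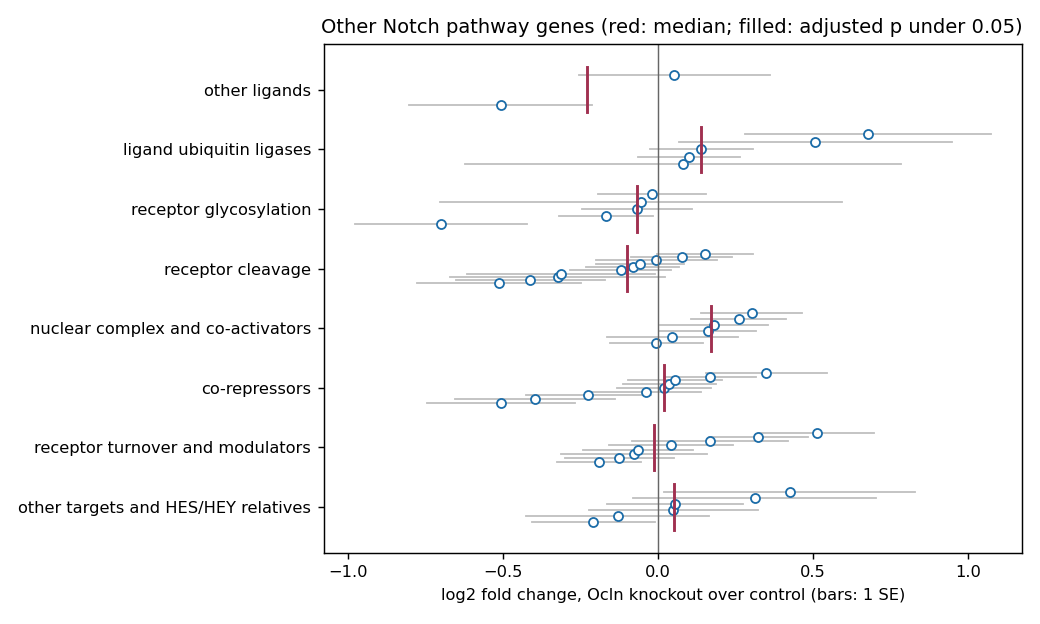
Log2 fold change of knockout over control (x axis, log2 units) of 51 further Notch pathway genes by role, from the authors' deposited table. Points are genes, grey bars 1 SE and red lines the median of a role; every point is open because 0 passed an adjusted p of 0.05.

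Cells other than luminal cells also use these genes, and markers of several cell types stood beside the Notch genes as follows. Luminal progenitor markers, which label luminal cells without hormone receptors, had 4 of 11 higher and 1 lower, against 0.808 percent and 0.275 percent of all listed genes. This and the other marker lists were chosen with earlier results of these data known, so no test was made of their counts. The median log2 fold change of the luminal progenitor markers was 0.75, and their summed fitted level was 2.10 times the control level. Without Ltf, the most abundant of them, the sums were 199472 normalized counts in knockout cells and 133299 in control cells. The called genes in the authors' deposited table were Ltf (2.59 ± 0.29 SE), Trf (0.99 ± 0.26), Mfge8 (0.95 ± 0.26) and Wfdc18 (0.88 ± 0.25), which encode secreted or milk fat globule proteins, and Csn3 (-1.15 ± 0.31), the kappa-casein gene. The other 6 markers, Elf5, Kit, Aldh1a3, Cd14, Ehf and Itga2, had positive values and were not called. Hormone-sensing markers had 0 of 9 called, a median of -0.40 and a summed fitted level 0.774 times control, with Prlr (-0.40 ± 0.26) and Areg (0.13 ± 0.63) the most abundant in the authors' deposited table. Pan-luminal markers had 0 of 8 called and a summed fitted level 0.966 times control, led by Krt18 (-0.10 ± 0.15) and Krt8 (-0.06 ± 0.14) in the authors' deposited table. The part of these populations in the values of Notch1 and Dtx1 was not tested, and in these bulk libraries fewer cells of a type and less RNA per cell cannot be told apart.

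Endothelial markers, whose cells are known to express Notch4 and Hey1, had 0 of 12 called, a median of -0.01 and summed fitted levels of 3495 normalized counts in knockout cells and 3875 in control cells; without Eng these were 2383 in knockout cells and 2302 in control cells. Eng (-0.50 ± 0.31 SE) and Pecam1 (0.04 ± 0.21) were the most abundant of them in the authors' deposited table. Pericyte markers, whose cells are known to express Notch3 and Heyl in mouse, had 0 of 6 called and summed fitted levels of 490.7 normalized counts in knockout cells and 545.7 in control cells, with a median of -0.24. The part of endothelial cells and pericytes in the values of Notch4, Hey1, Notch3 and Heyl was not tested. Mcam (-0.12 ± 0.19) and Rgs5 (-0.36 ± 0.37) led that list in the authors' deposited table. Basal and myoepithelial markers had 1 of 10 called, the oxytocin receptor gene Oxtr (-1.55 ± 0.38), with Acta2 (-0.16 ± 0.28) the most abundant in the authors' deposited table, and summed fitted levels of 2150 normalized counts in knockout cells and 2497 in control cells. The median of the basal list was -0.15, its values ran from -1.55 to 0.86, and without Oxtr the sums were 1951 in knockout cells and 1916 in control cells. Fibroblast markers had 1 of 8 called, Dcn (-1.36 ± 0.35), beside Fn1 (-0.35 ± 0.37) in the authors' deposited table, and summed fitted levels of 1757 normalized counts in knockout cells and 2066 in control cells. The median of the fibroblast list was 0.10 with 5 of 8 values positive, and without Dcn the sums were 1540 in knockout cells and 1508 in control cells, so the lower sum rested on Dcn. The genes left out of these sums were chosen after seeing the data, as the one in each list whose fitted level differed most.

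Markers of blood cells stood at low levels with positive medians. Lymphocytes are a known site of Dtx1 expression. B and plasma cell markers had 0 of 5 called, a median of 1.54 and summed fitted levels of 503.3 normalized counts in knockout cells and 164.3 in control cells, led by Ighm (1.58 ± 1.15 SE) and Ighd (2.58 ± 1.32) in the authors' deposited table. T and NK cell markers had 0 of 4 called and summed fitted levels of 309.9 normalized counts in knockout cells and 207.5 in control cells, led by Trbc2 (0.22 ± 0.47) and Ccl5 (1.12 ± 0.65) in the authors' deposited table. Of these lymphocyte lists, 3 and 4 further genes were not analysed here. Macrophage and myeloid markers had 1 of 9 called, S100a8 (2.12 ± 0.53), with Lyz2 (0.97 ± 0.29) and Ptprc (1.19 ± 0.76) the most abundant in the authors' deposited table, and summed fitted levels of 1955 normalized counts in knockout cells and 1119 in control cells. Ptprc alone had fitted levels of 390.6 normalized counts in knockout cells and 171.2 in control cells. Of the 9 macrophage and myeloid markers 8 had positive values, with a median of 0.97. Those of Csf1r (0.21 ± 0.25), Adgre1 (0.30 ± 0.37) and Fcgr1 (-0.08 ± 0.57), named after their values were seen, lay within 1 SE of 0. The part of blood cells in the value of Dtx1 was not tested.

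**Figure D5:**
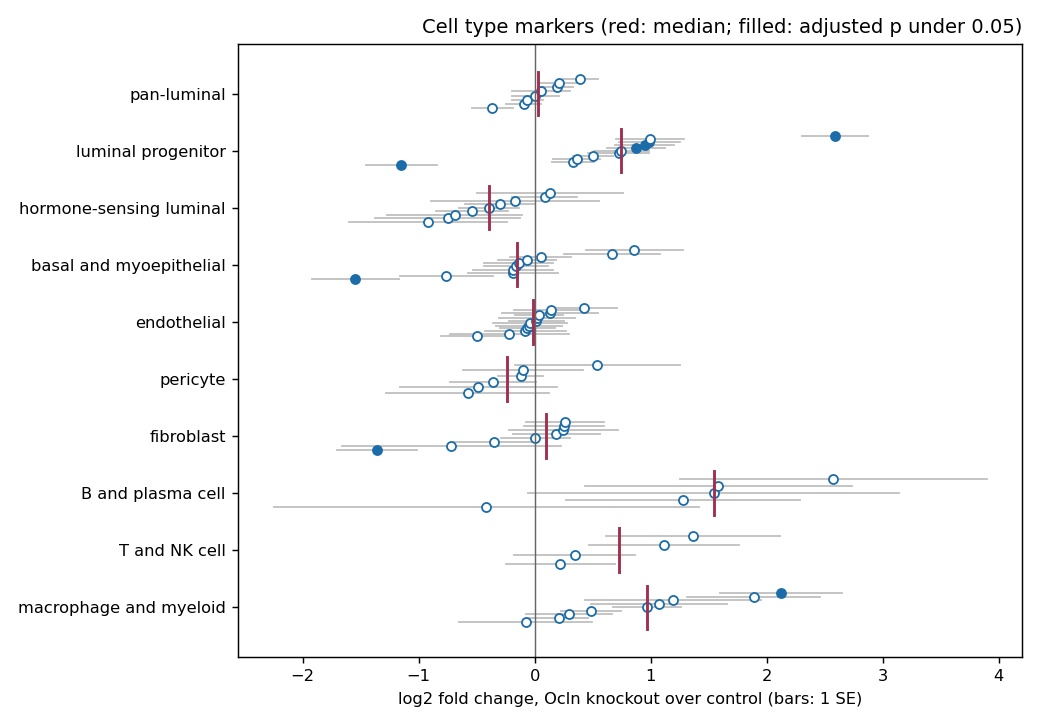
Log2 fold change of knockout over control (x axis, log2 units) of cell type markers by list, from the authors' deposited table. Points are genes (filled where the adjusted p was under 0.05), grey bars 1 SE and red lines the median of a list; the medians of the luminal progenitor and blood cell lists lie to the right of 0, while single members such as Csn3 lie to the left, and the endothelial median lies at -0.01.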

How the data were processed

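Polyadenylated RNA of mammary luminal cells was sequenced in 3 Ocln knockout and 3 control libraries. The submitters' processing notes name DESeq2 and the build mm10; the aligner, counter, annotation, model formula and versions are not given there. Per the file headers, the deposited table gives a mean level (a signal in normalized counts), a log2 fold change and its SE in log2 units, a Wald score, a p-value and an adjusted p-value, and as other value the authors' call in words. Knockout over control is the direction that the name of the file gives. The adjusted p-values differed by at most 0.512 percent from those of a Benjamini-Hochberg adjustment computed here.

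No new test per gene was made, and values per library were not used. Intervals are 1.96 SE on either side. A fitted level per genotype takes the mean level as the plain mean of the 2 genotypes. Exon lengths are unions of GENCODE M21 exons (GRCm38), found for 16250 listed genes (97.3 percent); promoter windows are from RefSeq, GRCm38.p6. An antisense transcript, 0610009E02Rik, shares exon positions with Notch1, at a mean level of 13.1 normalized counts in the authors' deposited table; whether counting used strand is not stated. The lowest mean level listed was 8.35. The 10 genes and all lists were chosen with earlier results of these data known. Named by rule are all 10 genes, Ocln, and of other pathway genes each called one and in each role the one with the highest level and the lowest p; of marker lists, each called gene and the 2 with the highest level. A gene that this rule names is not reported here. The adjustment, inflation and length steps were tested on simulated data. Python 3.11.15, pandas 2.3.3, NumPy 2.4.6, SciPy 1.17.1 and matplotlib 3.10.9 were used. The depth per library, and so the precision of single values, is unknown; that of each fold change is its SE.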

Additional observations from a re-analysis of the deposited data

How the results depend on the processing

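The count of Notch genes called was 2 (Notch1 and Dtx1), and 7 other settings were tried. It was 2 with the same genes when only genes at or above a mean level of 50 were adjusted together and when fold changes were centred on the median of all genes. It was also 2 under the authors' own calls, but these named Dtx1 and Heyl, not Notch1. It was 1, Dtx1, when a log2 ratio of 1 or more in size was required and when the trend with exon length had been removed, and 0 at an adjusted p under 0.01 and after the scores were divided by the root of their inflation factor of 1.18. Over all listed genes the count was 181, and 107 at an adjusted p under 0.01, 117 with the fold change minimum, 466 by the authors' calls and 119 after division by the inflation. The further pathway list had 0 calls under all 7 settings. None of the 10 genes gained a call except Heyl under the authors' own calls. Scores rose with exon length (Spearman rho 0.171 over genes, not independent samples). The causes of the lost calls were not tested. No paired analysis was possible because the deposited table holds no values per library; for the same reason leaving out a replicate and another normalization were not run. Leaving out 1 gene, chosen after seeing the data, put the summed fitted level of endothelial, basal, fibroblast and pan-luminal markers from below to above the control level (ratios 1.04, 1.02, 1.02 and 1.01 of knockout over control), while the sums of the other 6 marker lists stayed on their side of it.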

Other observations

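The SE of Hey1 had company in several marker lists, among them those of hormone-sensing luminal cells and of B and plasma cells. Of the 9 listed hormone-sensing luminal markers, 6 had an SE above more than 95 percent of the 500 genes nearest in mean level. This held for 0 of 8 pan-luminal markers and 0 of 51 further Notch pathway genes. The same held for 5 of 5 B and plasma cell markers, 2 of 4 T and NK cell markers, 3 of 8 fibroblast markers, 2 of 10 basal and myoepithelial markers, 2 of 12 endothelial markers, 1 of 11 luminal progenitor markers, 1 of 9 macrophage and myeloid markers and 0 of 6 pericyte markers. In the authors' deposited table the SE was 0.72 for Ly6a, 0.68 for Cited1, 0.63 for Areg, 0.62 for Wnt4 and 0.58 for Esr1, beside 0.60 for Hey1. The rest of the hormone-sensing list had lower SEs, with 0.31 for Foxa1, 0.30 for Pgr, 0.28 for Prom1 and 0.26 for Prlr. Neighbours of these genes in mean level had a median SE of 0.17 to 0.18. Whether Hey1 follows any of these cell types was not tested. Jag1 and Heyl also stood above 95 percent of their neighbours, and Hes1 and the 4 receptor genes did not. Of the further pathway genes, Cdkn1a stood at 95 percent and Ccnd1 at 94 percent, at or just under that cut. Pgr and Prom1 of the hormone-sensing list also stood at 95 percent. Values per library, which would show which libraries carry this spread, were not analysed here.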
